A study of Mus musculus with 12 samples.

Results

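The small leucine-rich proteoglycans are secreted proteins of the extracellular matrix, and the 9 genes described here are Aspn, Ogn, Omd, Dcn, Bgn, Lum, Fmod, Prelp and Podn. They were chosen by symbol because Aspn and Ogn were among the genes most raised between day 3 and day 6 of induced reprogramming. Only probe sets naming that gene alone were used, and where a gene had several, the brightest on average across the 12 arrays represented it. The array held 22180 genes with a probe set of their own, 17860 of them past a filter on low values, and 7 of the 9 proteoglycans passed it. The filter kept a gene that reached the array's own 30th percentile in at least 3 arrays, and this low-value mark lay between log2 intensities of 4.30 and 4.38.

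The cells were mouse embryonic fibroblasts (MEFs) from E13.5 embryos of strain C57Bl/6 -129X1/SvJ. All 4 groups carried the genotype Col1a1::tetOP-OKSM ; R26-M2rtTA, in which doxycycline, through a transactivator expressed from the Rosa26 locus, switches on Oct4, Klf4, Sox2 and c-Myc (OKSM). Every culture was kept in serum and LIF and given doxycycline, so no uninduced fibroblast is among the samples used here. The groups were day 6 Chaf1a knockdown, day 6 Renilla control, day 3 Chaf1a knockdown and day 3 Renilla control, with 3 arrays each. Knockdown was by a retroviral hairpin against Chaf1a, the large subunit of the histone chaperone CAF-1, and the control was a hairpin against Renilla luciferase. The labels do not say whether replicates were separate embryos or cultures, so p-values measure only the spread between these samples. In whole cultures, fewer cells of a type and less RNA per cell cannot be told apart.

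Proteoglycans of this family share a core of leucine-rich repeats, and most carry chondroitin, dermatan or keratan sulfate chains. They bind collagen and regulate the assembly and width of its fibrils, and several bind growth factors such as TGF-beta or act on cell-surface receptors. Fibroblasts and the cells of tendon, cartilage and bone are their best known sources. Reprogramming to pluripotency is known to silence the fibroblast programme, of which matrix genes are a large part.

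Aspn, Omd and Ogn are neighbours on mouse chromosome 13 and lie on the same strand, so the sequences around their starts are shown first. Each window is from RefSeq, build GRCm38.p6, plus strand, and runs from 250 bases before the gene's start to 50 bases after it. Aspn lies at chr13:49544193-49544492, Omd at chr13:49582212-49582511 and Ogn at chr13:49607765-49608064. Capitals mark matches, on either strand, to the TATA box (TATAAA), a Sox motif (ACAANG) and a Klf motif (CACCC). The capital run of Ogn near its left end holds 2 TATA box matches that overlap on opposite strands.
Aspn: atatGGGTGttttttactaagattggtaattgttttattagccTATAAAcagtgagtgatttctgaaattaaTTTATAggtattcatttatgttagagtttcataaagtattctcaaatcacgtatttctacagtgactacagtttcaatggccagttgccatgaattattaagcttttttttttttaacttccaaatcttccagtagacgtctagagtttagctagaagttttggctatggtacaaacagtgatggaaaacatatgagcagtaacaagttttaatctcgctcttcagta
Omd: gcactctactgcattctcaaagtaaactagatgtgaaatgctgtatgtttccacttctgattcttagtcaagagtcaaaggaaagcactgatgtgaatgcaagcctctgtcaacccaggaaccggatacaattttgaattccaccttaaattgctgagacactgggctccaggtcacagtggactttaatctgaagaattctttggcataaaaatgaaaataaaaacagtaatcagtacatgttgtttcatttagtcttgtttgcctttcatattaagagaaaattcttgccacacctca
Ogn: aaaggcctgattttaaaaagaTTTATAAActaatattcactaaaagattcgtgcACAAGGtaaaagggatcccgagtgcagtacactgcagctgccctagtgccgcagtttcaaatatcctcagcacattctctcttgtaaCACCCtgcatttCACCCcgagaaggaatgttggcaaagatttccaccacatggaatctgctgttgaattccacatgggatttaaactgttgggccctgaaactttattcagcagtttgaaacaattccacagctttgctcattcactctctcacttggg
The Aspn window held 2 TATA box matches, beginning at −207 and −178 relative to the start, and 1 Klf match on the minus strand. The Ogn window held its TATA box matches at −229 and −227, 1 Sox match and 2 Klf matches. The Omd window held none of the 7 motifs searched. These matches describe letters in a window and say nothing of binding.

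The windows of Aspn and Ogn were the only ones among the proteoglycans with a TATA box match. RefSeq windows were found for 7 of the 9 genes, 8 windows in all since Podn has a pair, and Dcn and Lum are named only. A TATA box match was present in 13.6% of all 32851 windows of the same length. Klf matches were present in 7 of the 8 proteoglycan windows, against 57.5% of all windows. Sox matches were present in 2 of the 8, those of Ogn and Fmod, against 41.2%. The Smad motif CAGAC was present in 3, against 49.6%. None of the 8 held the octamer ATGCAAAT (1.74% of all windows), the Myc E-box CACGTG (7.15%) or the AP-1 motif TGANTCA (7.81%). Octamer, Sox, Klf and E-box motifs are those bound by the families of the 4 induced factors. The windows of Aspn (31% G and C), Omd (37.7%) and Ogn (42.3%) were poor in G and C beside the median of 52.7% over all windows, whereas those of the other proteoglycans ran from 51% to 77%.

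Aspn encodes asporin, which binds collagen and TGF-beta. Its log2 intensities were 8.85, 7.21 and 6.72 in day 6 knockdown arrays and 8.90, 7.70 and 7.41 in day 6 controls. At day 3 they were 4.96, 4.69 and 4.51 in knockdown arrays and 4.65, 4.42 and 4.50 in controls. Every day 6 array lay above every day 3 array, and the day 3 values lay only just above the low-value mark. The mean difference, day 6 minus day 3, was 2.87 on the log2 scale in knockdown cells (7.30-fold) and 3.48 in control cells (11.2-fold). By size of this difference Aspn was number 3 of the 17860 genes in knockdown and number 1 in control. These ranks repeat what chose the gene and carry no test. Replicate 1 was the highest array at day 6 with both hairpins, by 1.89 over the mean of the other knockdown arrays and 1.34 over that of the other controls. The same-number pairs of arrays differed by 3.89, 2.51 and 2.20 in knockdown and by 4.25, 3.29 and 2.91 in control. Without replicate 1 the folds were 5.13 in knockdown and 8.56 in control.

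Ogn encodes osteoglycin, also called mimecan, which regulates the assembly of collagen fibrils. Day 6 knockdown arrays stood at 10.43, 9.58 and 9.26 and day 6 controls at 10.79, 9.71 and 9.62. Day 3 knockdown arrays stood at 8.08, 7.64 and 7.77 and day 3 controls at 8.21, 7.80 and 8.16. As for Aspn, no day 6 array reached down to a day 3 array, and replicate 1 was the highest at day 6 with both hairpins. The log2 difference was 1.93 in knockdown (3.80-fold, number 14 of all genes) and 1.98 in control (3.95-fold, number 9). Without replicate 1 it was 1.71 in knockdown and 1.69 in control. By group mean, Aspn ran day 6 control, day 6 knockdown, day 3 knockdown and day 3 control from high to low, and Ogn the same with the day 3 groups exchanged. Within a day the hairpin groups overlapped for both genes, although the knockdown array was the lower in all 3 same-number pairs of Ogn on each day. The plot of every array shows these values for all 9 genes.

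**Figure D1:**
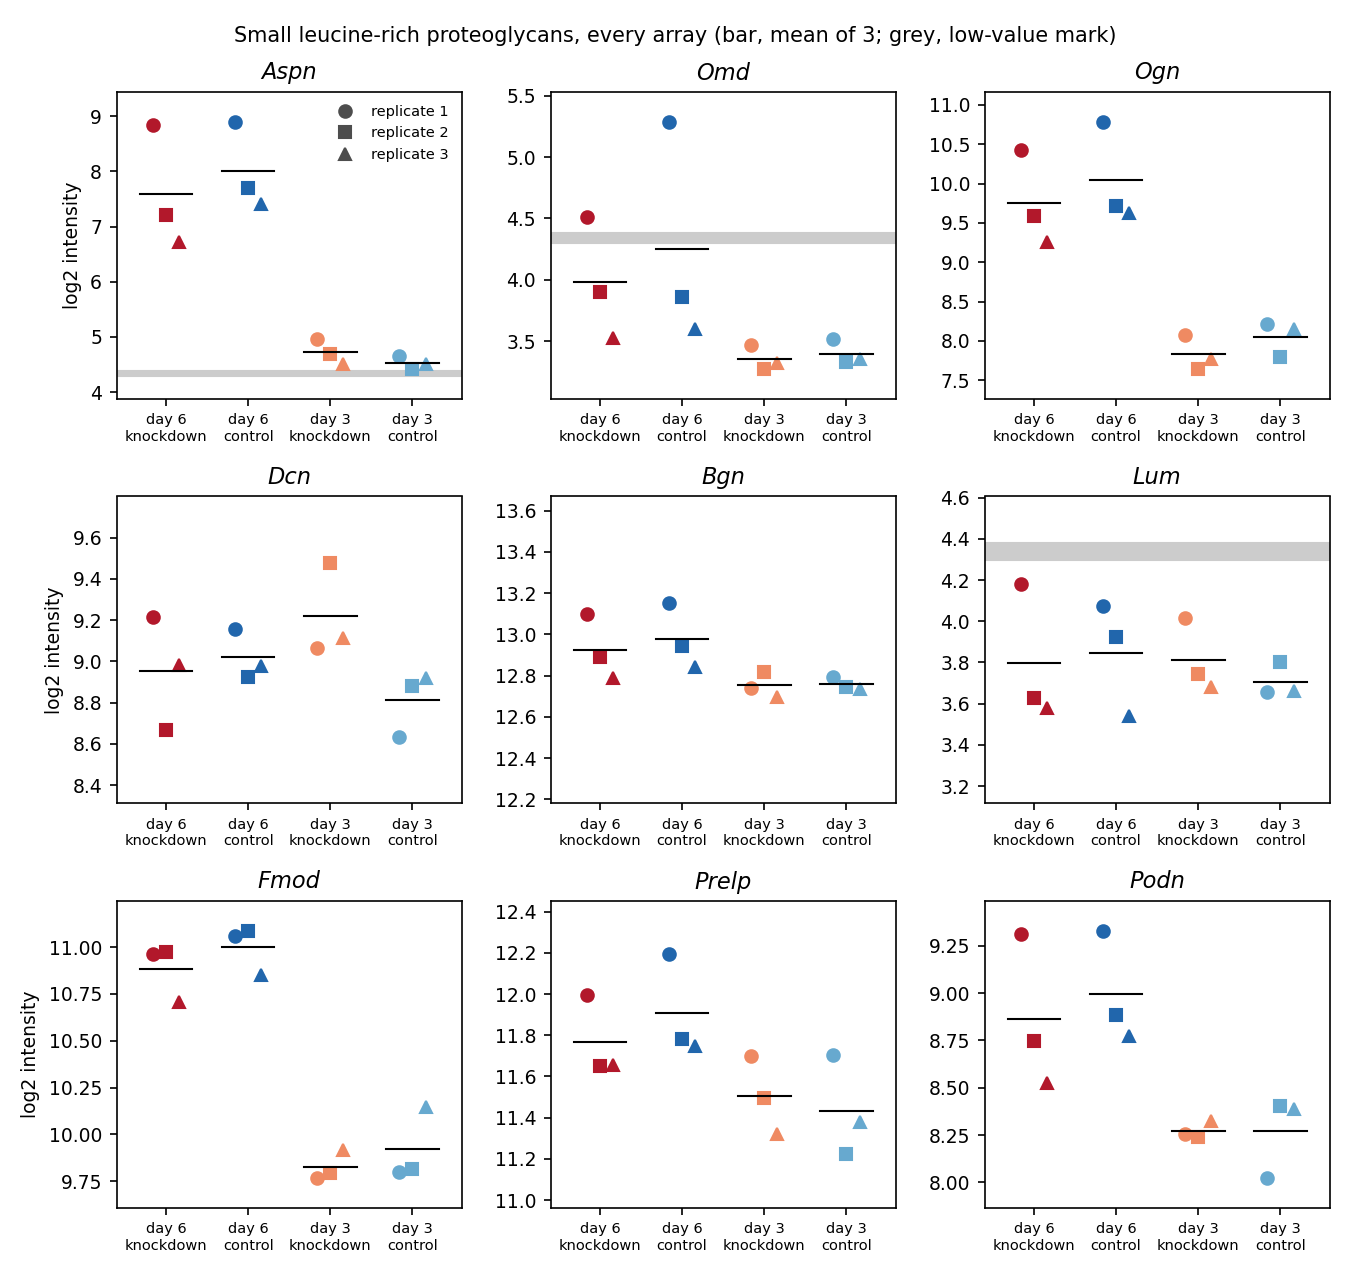
Log2 intensity of each proteoglycan (vertical axis) in the 12 arrays, by group (horizontal axis: day 6 knockdown, day 6 control, day 3 knockdown, day 3 control). Symbols tell the replicate, bars are means of 3 arrays and the grey band is the range of the low-value mark over arrays; Aspn and Ogn were higher in every day 6 array, and Lum stayed below the band.

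Omd encodes osteomodulin, a keratan sulfate proteoglycan of mineralised tissue, and its gene lies between Aspn and Ogn. Its values were 4.51, 3.90 and 3.53 in day 6 knockdown arrays and 5.29, 3.86 and 3.60 in day 6 controls. At day 3 they were 3.47, 3.27 and 3.32 in knockdown arrays and 3.51, 3.33 and 3.35 in controls. Omd exceeded the low-value mark only in replicate 1 at day 6, once with each hairpin, so it did not pass the filter and no fold is given.

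Fmod encodes fibromodulin, a keratan sulfate proteoglycan that binds type I collagen. It stood at 10.96, 10.98 and 10.71 in day 6 knockdown arrays and at 11.06, 11.09 and 10.85 in day 6 controls. Day 3 values were 9.77, 9.79 and 9.92 with the knockdown hairpin and 9.80, 9.81 and 10.15 with the control hairpin. Its day 6 and day 3 arrays did not overlap, and it was the only proteoglycan in which replicate 1 was not the highest day 6 array with both hairpins. The difference was 1.06 in knockdown (2.08-fold) and 1.08 in control (2.11-fold). A second Fmod probe set gave 0.93 in knockdown and 0.88 in control.

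Podn encodes podocan, a family member that binds type I collagen. Its day 6 values were 9.31, 8.75 and 8.53 in knockdown and 9.33, 8.89 and 8.78 in control. At day 3 it was at 8.26, 8.24 and 8.33 in knockdown and at 8.02, 8.40 and 8.39 in control. The days did not overlap with either hairpin, but replicate 1 carried much of the distance. The log2 difference was 0.59 in knockdown and 0.73 in control, and 0.35 in knockdown and 0.44 in control without replicate 1.

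Prelp encodes a proteoglycan that binds heparan sulfate and collagen near basement membranes. Levels at day 6 were 11.99, 11.65 and 11.65 in knockdown arrays and 12.19, 11.78 and 11.75 in controls. At day 3 they were 11.70, 11.50 and 11.32 in knockdown arrays and 11.70, 11.22 and 11.38 in controls. The days overlapped in knockdown, where the log2 difference was 0.26, and did not in control, where it was 0.47. A second Prelp probe set gave smaller differences, 0.13 in knockdown and 0.14 in control, and its days overlapped with both hairpins.

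Bgn encodes biglycan, a chondroitin and dermatan sulfate proteoglycan that also signals through toll-like receptors when released. It stood at 13.10, 12.89 and 12.79 in day 6 knockdown arrays and at 13.15, 12.94 and 12.84 in day 6 controls. Day 3 values were 12.74, 12.82 and 12.70 in knockdown and 12.79, 12.75 and 12.73 in control. The difference was 0.17 in knockdown, where the days overlapped, and 0.22 in control, where they did not. Its second probe set gave 0.43 in knockdown, where the days did not overlap, and 0.40 in control, where they did.

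Dcn encodes decorin, which binds collagen and TGF-beta and restrains receptor tyrosine kinases. Its levels were 9.21, 8.67 and 8.98 in day 6 knockdown arrays and 9.16, 8.92 and 8.98 in day 6 controls. At day 3 they were 9.06, 9.48 and 9.11 in knockdown arrays and 8.63, 8.88 and 8.92 in controls. The day 6 mean was below the day 3 mean in knockdown, by a log2 difference of −0.26, and above it in control, by 0.21. The knockdown difference was −0.13 without day 3 replicate 2 and −0.12 without day 6 replicate 2, and it was 0.01, of the other sign, without both. Leaving out replicate 1 of both days made it larger, −0.47. The control difference was 0.05 without replicate 1 of both days. Knockdown days overlapped, and the control days were apart only in the third decimal of the level. Lum, which encodes lumican, the keratan sulfate proteoglycan of the cornea, stayed between 3.54 and 4.18 in the 12 arrays, below the low-value mark in each, and is given no fold.

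**Figure D2:**
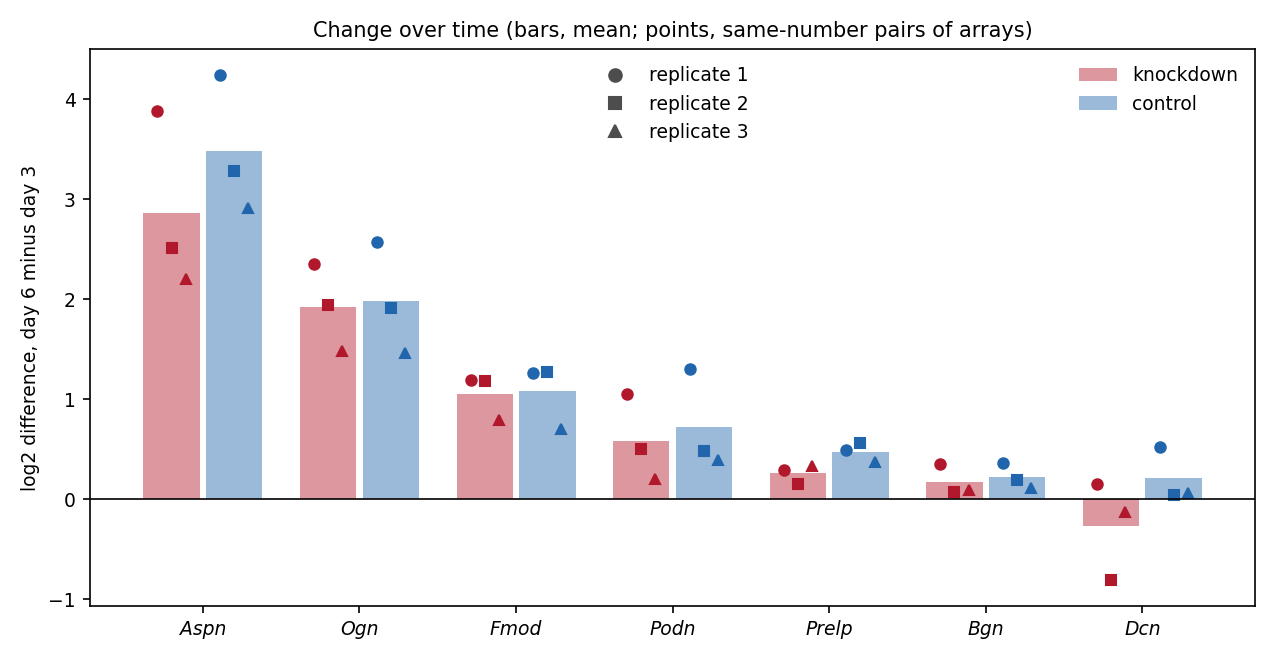
Log2 difference, day 6 minus day 3 (vertical axis), for the 7 proteoglycans past the low-value filter (horizontal axis), in knockdown and control cells. Bars are differences of means and points are same-number pairs of arrays; the bars run from −0.26 (Dcn, knockdown) to 3.48 (Aspn, control).

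Over the 7 proteoglycans past the filter, the day 6 mean was higher for 6 in knockdown and for all 7 in control. Every day 6 array exceeded every day 3 array for 4 of the 7 in knockdown, where 15.4% of all genes did so, and for 7 in control, where 16% did. The gap between 4 and 7 depends on the probe set. In the second probe sets of Bgn and Prelp the control days overlapped, and in that of Bgn the knockdown days did not. The median log2 difference was 0.59 in knockdown and 0.73 in control, beside 0.01 over all genes with either hairpin. These counts describe the genes as chosen and are read no further, since Aspn and Ogn were picked for this difference and a gene that is high in only some arrays passes the filter through them. Among all 17860 genes, 7.46% rose and 10.5% fell between day 3 and day 6 in knockdown, and 6.99% rose and 10.6% fell in control, by limma with a Benjamini-Hochberg adjusted p under 0.05.

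Replicate 1 was the highest day 6 array with both hairpins for 8 of the 9 proteoglycans, all except Fmod, and for 6 of the 7 past the filter. The same held for 17.1% of all genes past the filter. The score of the 7 genes (the mean over genes of the log2 value less the gene's mean over 12 arrays) was 0.89, 0.30 and 0.14 in day 6 knockdown replicates 1 to 3. It was 0.99, 0.48 and 0.37 in day 6 controls, and −0.57 to −0.44 in day 3 knockdown and −0.62 to −0.49 in day 3 control arrays. Scores of 15 fibroblast markers stood well above the day 3 arrays only in replicate 1 of each day 6 group. They were 0.28, −0.07 and −0.15 in day 6 knockdown, 0.34, −0.01 and −0.05 in day 6 control, and −0.09 to −0.02 over the day 3 arrays. Scores of 19 proliferation genes were −0.16, −0.01 and −0.09 in day 6 knockdown and −0.37, −0.07 and −0.19 in day 6 control, lowest in replicate 1 of each. Day 3 scores of those genes were 0.05 to 0.27 in knockdown and 0.11 to 0.22 in control. The part of these in the proteoglycan values was not tested. Without replicate 1 the day 6 means of Aspn, Ogn, Fmod and Podn were still above their day 3 means, as given above for Aspn, Ogn and Podn.

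**Figure D3:**
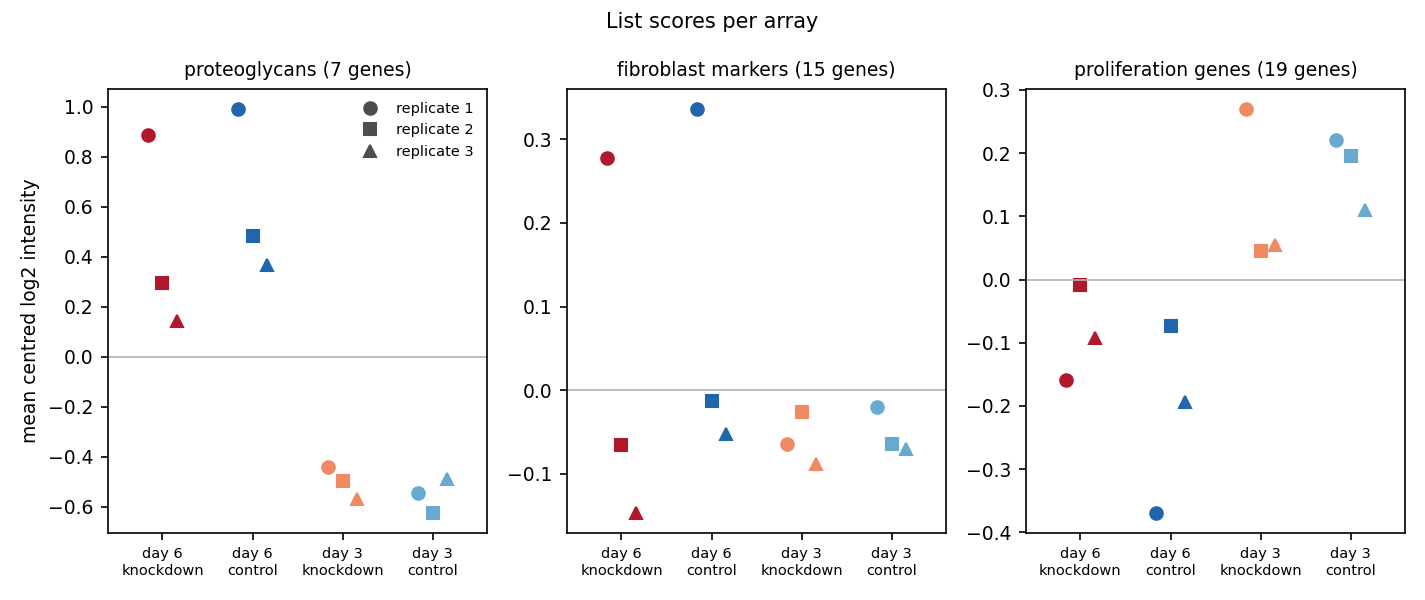
Mean centred log2 intensity per array (vertical axis, a scale of its own in each panel) for the 7 proteoglycans, 15 fibroblast markers and 19 proliferation genes, by group (horizontal axis). Symbols tell the replicate; replicate 1 was the highest day 6 array for the proteoglycans and fibroblast markers and the lowest for the proliferation genes, with both hairpins.

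Fibroblast markers were present in every group. All 15 fibroblast markers on the array passed the filter and 13 lay above the array median in all 12 arrays, with Col1a1 at 10.57 to 10.97 in day 6 knockdown, 10.75 to 11.09 in day 6 control, 10.47 to 10.78 in day 3 knockdown and 10.60 to 10.83 in day 3 control. Their summed intensity ranged from 25790 to 28026, 26498 to 28944, 25317 to 26168 and 25695 to 26540 in the same order of groups. Between days, 2 of the 15 rose and 0 fell with each hairpin. For this and the marker counts below, the shares over all genes were 7.46% risen and 10.5% fallen in knockdown. In control they were 6.99% and 10.6%. Tendon markers, a tissue in which several of these proteoglycans are abundant, passed the filter for 7 of 7, with sums of 1155 to 1544 in day 6 knockdown, 1275 to 1679 in day 6 control, 863 to 981 in day 3 knockdown and 868 to 1005 in day 3 control. Of the 7, 1 rose and 1 fell in knockdown, and 2 rose and 1 fell in control. Smooth muscle markers (8 of 8 past the filter) summed to 9190 to 9878 in day 6 knockdown, 9829 to 10165 in day 6 control, 11053 to 12241 in day 3 knockdown and 11343 to 12154 in day 3 control. Of the 8, 0 rose and 4 fell in knockdown, and 0 rose and 3 fell in control. Of 11 bone markers listed, 7 had a probe set of their own, 5 passed the filter and 0 were called with either hairpin. Runx2, the defining one, had no such probe set. For cartilage markers 11 of 12 passed the filter, and 1 rose and 1 fell with each hairpin. Adipocyte markers (7 of 10 past the filter) summed to 337 to 362 in day 6 knockdown, 361 to 366 in day 6 control, 452 to 559 in day 3 knockdown and 468 to 529 in day 3 control, so day 6 lay below day 3 with no overlap. Of the 7, 0 rose and 2 fell in knockdown, and 1 rose and 2 fell in control, and Adipoq, the defining one, lay below the mark in all arrays (3.51 to 4.01). Macrophage and leukocyte markers (9 of 10 past the filter) summed to 538 to 554 in day 6 knockdown, 512 to 544 in day 6 control, 884 to 911 in day 3 knockdown and 788 to 853 in day 3 control, also without overlap of the days. Of the 9, 0 rose and 2 fell in knockdown, and 0 rose and 1 fell in control, with Ptprc, the defining one, at 3.86 to 4.41. Endothelial markers (9 of 10 past the filter) included 2 that rose in knockdown and 3 that rose in control. Their sums overlapped between days, at 1296 to 1449 over the day 6 arrays and 1337 to 1478 over the day 3 arrays. Their scores, which weigh each gene alike, did not overlap, at 0.06 to 0.16 at day 6 and −0.20 to −0.07 at day 3. For tendon markers in knockdown the sums did not overlap between days, but the scores did (−0.06 to 0.26 at day 6 and −0.21 to −0.03 at day 3). The part of these markers in the proteoglycan values was not tested.

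Chaf1a, the target of the knockdown, was only slightly lower in knockdown arrays. It stood at 7.04, 7.16 and 7.11 in day 6 knockdown and 7.06, 7.30 and 7.31 in day 6 control, 1.09-fold lower. At day 3 it stood at 7.35, 7.18 and 7.19 in knockdown and 7.44, 7.72 and 7.42 in control, 1.22-fold lower. In all 3 same-number pairs of each day the lower value was that of the knockdown array, and neither difference passed limma's test (adjusted p = 0.999 at day 6 and 0.726 at day 3). The hairpin groups did not overlap at day 3 (unadjusted p = 0.0098 in limma) and overlapped at day 6 (unadjusted p = 0.231). Whether the probe set reads the knocked-down transcript well was not tested, so these values do not give the depth of the knockdown. The hairpin comparisons below are therefore of libraries labelled knockdown, with a small difference in the signal of the target.

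No proteoglycan differed between hairpins past the test on either day. At day 6 the knockdown mean was the lower for all 7 genes, but 0 of 7 passed limma's test at an adjusted p of 0.05, with 0 at an unadjusted p under 0.05, where 0.0392% of all genes passed (7 of 17860). The log2 difference, knockdown minus control, was −0.42 for Aspn (95% interval −1.41 to 0.58, adjusted p = 0.999 in limma) and −0.28 for Ogn (−0.96 to 0.40, adjusted p = 0.999). It was −0.14 for Prelp, −0.14 for Podn, −0.12 for Fmod, −0.07 for Dcn and −0.05 for Bgn, with the same adjusted p. The median over the 7 was −0.14, beside −0.01 over all genes. Knockdown arrays were the lower in 3 of 3 same-number pairs for Aspn, Ogn, Fmod, Podn, Prelp and Bgn, and in 1 of 3 for Dcn. The second probe sets of Bgn and Prelp were lower in 3 of 3 pairs and that of Fmod in 2 of 3. The share of all genes lower in every pair was not counted. All 7 genes were read on the same arrays, so these pair counts are read no further. For Aspn the pairs differed by −0.05, −0.50 and −0.70 and for Ogn by −0.35, −0.13 and −0.37. The hairpin groups overlapped for all 7 genes, where 10.6% of all genes did not overlap at day 6. With whole same-number pairs left out, the difference stayed below 0 for both, between −0.60 and −0.28 for Aspn and between −0.36 and −0.24 for Ogn. With 1 array left out of 1 arm, which breaks its pair, the sign could turn. Without control replicate 1 the difference was 0.03 for Aspn and 0.09 for Ogn, without knockdown replicate 3 it was 0.02 for Aspn, and without knockdown replicate 1 it was −1.04 for Aspn and −0.62 for Ogn. The intervals for Aspn allow a level from 0.376 to 1.50 times that of control, so the comparison is wide for the most changed gene. That of Bgn allows 0.841 to 1.10 times. These intervals come from the fit without the replicate number, so they include spread that same-number arrays share. The SD of the 3 pair differences was 0.33 for Aspn and 0.14 for Ogn. Within groups the SD was 1.12 in knockdown and 0.79 in control for Aspn, and 0.61 and 0.65 for Ogn.

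Some pluripotency and epithelial markers differed between hairpins at day 6: 3 of 12 pluripotency and 2 of 15 epithelial markers rose in knockdown by limma's test, 0 fell, and the other 9 and 13 did not pass. With arrays left out, the calls of this comparison over all genes numbered 0 to 8 in place of 7. The sums that follow were not tested. The 12 pluripotency markers, all past the filter, summed to 965 to 1076 in day 6 knockdown, 780 to 817 in day 6 control, 693 to 737 in day 3 knockdown and 688 to 708 in day 3 control. The 15 epithelial markers, all past the filter, summed to 2216 to 2467 in day 6 knockdown, 1578 to 1757 in day 6 control, 1591 to 1820 in day 3 knockdown and 1604 to 1816 in day 3 control. Their part in the lower day 6 means of the proteoglycans was not tested.

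At day 3, Dcn was the one proteoglycan whose hairpin groups did not overlap, at the 9.06 to 9.48 and 8.63 to 8.92 given above for knockdown and control. The difference was 0.41 (SE 0.14, 95% interval 0.10 to 0.72, unadjusted p = 0.0138), and it did not pass limma's test over all genes (adjusted p = 0.726). At day 3, 10.8% of all genes had groups that did not overlap and 0% passed the test. Knockdown replicate 2, the highest Dcn array, also stood apart in a list of interferon-stimulated genes, with a score of 1.21 against −0.20 to −0.04 in the other 11 arrays. Without that array the Dcn difference was 0.28. The 6 other proteoglycans lay between −0.23 (Ogn) and 0.20 (Aspn), with Prelp at 0.07, Podn at 0.00, Bgn at −0.01 and Fmod at −0.09. The second Bgn probe set, with −0.18, had groups that did not overlap.

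**Figure D4:**
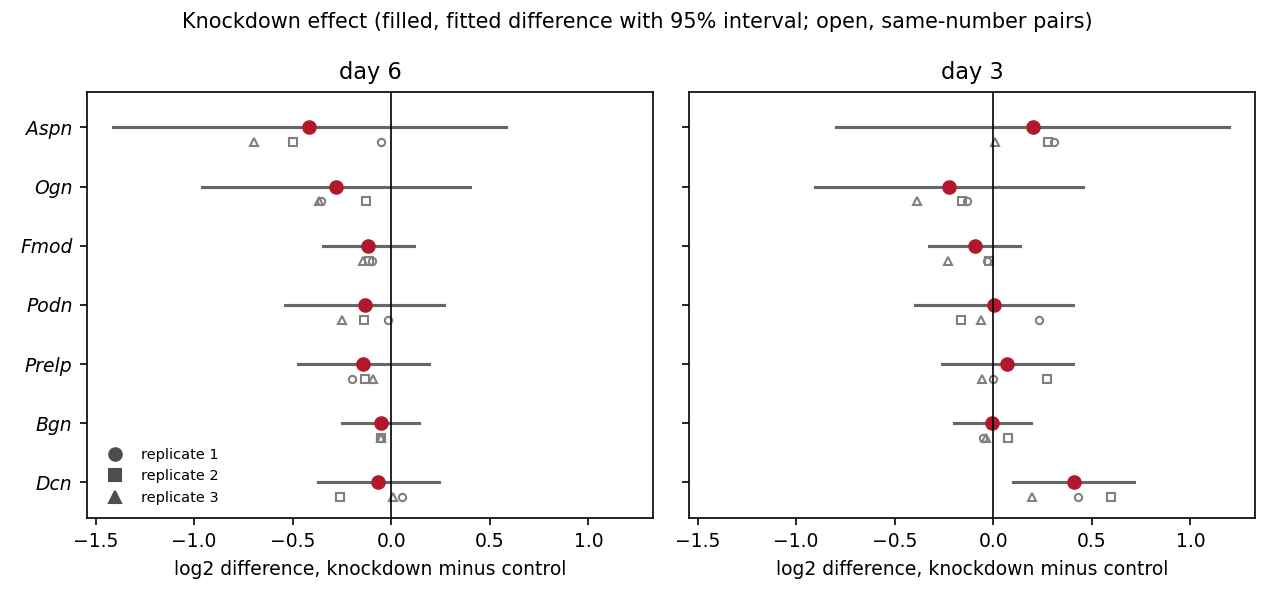
Log2 difference, knockdown minus control (horizontal axis), of the 7 proteoglycans (vertical axis) at day 6 and day 3. Filled points are fitted differences with 95% intervals from limma and open points are same-number pairs of arrays; all 7 intervals include 0 at day 6, and at day 3 only that of Dcn does not.

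The change over time did not differ between hairpins past the test. In the interaction of limma (the day 6 effect minus the day 3 effect, equally the knockdown time change minus the control one), 0 of 7 proteoglycans and 0% of all genes passed. The difference was −0.61 for Aspn (95% interval −2.02 to 0.80, adjusted p = 0.991), −0.06 for Ogn (−1.02 to 0.90, adjusted p = 0.997) and −0.47 for Dcn (−0.91 to −0.04, unadjusted p = 0.0359, adjusted p = 0.972). Dcn was the 1 gene of the 7 with an unadjusted p under 0.05. Averaged over both days, 0 of 7 proteoglycans and 0% of all genes passed, the effects ran from −0.25 (Ogn) to 0.17 (Dcn), and the lowest adjusted p was 0.932.

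The genes nearest to Aspn and Ogn in pattern were themselves among those with large differences between days. Likeness was measured as the root mean square difference of log2 values after each gene's mean was removed, in which smaller is more alike, so it depends on the size of the day 6 minus day 3 difference by which Aspn and Ogn were chosen, and the place of one beside the other restates that choice. The 5 named genes nearest to Aspn were Abi3bp (0.493), a matrix protein, Eln (0.527), which encodes elastin, Ecrg4 (0.646), a secreted peptide precursor, Ogn (0.673) and Egfl6 (0.688), a matrix protein with EGF repeats. The 5 nearest to Ogn were Penk (0.215), which encodes proenkephalin, Ecrg4 (0.233), Ptn (0.254), which encodes the growth factor pleiotrophin, Apod (0.295), which encodes apolipoprotein D, and Eln (0.317). Over the other 17859 genes ranked by nearness to Aspn, Ogn was number 4, Fmod 71, Podn 159, Prelp 512, Bgn 1329 and Dcn 8265. By nearness to Ogn, Fmod was number 51, Aspn 126, Podn 151, Prelp 479, Bgn 1278 and Dcn 11256. The 12 arrays share their groups and replicate numbers, so these values are a description.

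Genes beside Aspn, Omd and Ogn did not share their size of difference. In RefSeq order on chromosome 13 the protein-coding genes run Ippk, Cenpp, Ecm2, Aspn, Omd, Ogn, Nol8 and Iars, and the Cenpp gene overlaps all 3 proteoglycan genes. Ecm2, which encodes a related leucine-rich matrix protein, had a log2 difference of 0.31 in knockdown (adjusted p = 0.0627 in limma, and 0.0264 with the replicate number as a block). In control it rose by 0.39 (adjusted p = 0.0235), from levels near the low-value mark, and that call was lost without day 6 control replicate 1 (0.28, adjusted p = 0.101), day 3 control replicate 1 (0.37, 0.0623) or day 3 control replicate 3 (0.38, 0.0672). Cenpp, a centromere protein, stood at 0.02 in knockdown (adjusted p = 0.944) and −0.04 in control (adjusted p = 0.871). Ippk, an inositol phosphate kinase, fell by 0.44 in knockdown (adjusted p = 0.00614) and by 0.50 in control (adjusted p = 0.00313). Iars, the isoleucyl-tRNA synthetase, fell by 0.28 in knockdown (adjusted p = 0.00567) and by 0.38 in control (adjusted p = 0.00102). Nol8, a nucleolar protein, was at −0.08 in knockdown (adjusted p = 0.456) and fell by 0.23 in control (adjusted p = 0.0383). The Nol8 call was lost without any 1 of 5 of the 6 control arrays (adjusted p = 0.0651 to 0.150) and held without day 6 control replicate 3, while Ippk and Iars kept their calls without any single array. With all arrays kept, the Nol8 call was lost with quantile normalisation again (−0.17, adjusted p = 0.0974). It was also lost with only the 2 groups compared (0.0648), and without replicate 1, 2 or 3 of all groups (0.208, 0.223 and 0.0960). With a replicate number left out of all groups, the knockdown call was lost for Iars without number 1, 2 or 3 (adjusted p = 0.0575 to 0.0810) and for Ippk without number 1 or 3 (adjusted p = 0.0665 and 0.0657).

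The other clustered proteoglycans lie on chromosomes 10 and 1. Dcn and Lum lie beside Kera and Epyc on chromosome 10. Kera, which encodes keratocan, another corneal member of the family, stood at 0.01 in knockdown and −0.01 in control, and Epyc did not pass the filter. Of 6 neighbours tested there, 1 rose with each hairpin and 0 fell. Prelp and Fmod lie beside each other and Optc on chromosome 1. Optc, which encodes opticin, a further family member, stood at −0.24 in knockdown (adjusted p = 0.145) and −0.18 in control, and did not pass with either hairpin. Of 6 neighbours tested there, 0 rose or fell in knockdown, and 1 rose and 0 fell in control. With 6 genes tested at each place, these counts cannot be told from the 6.99% to 7.46% of all genes that rose and 10.5% to 10.6% that fell.

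**Figure D5:**
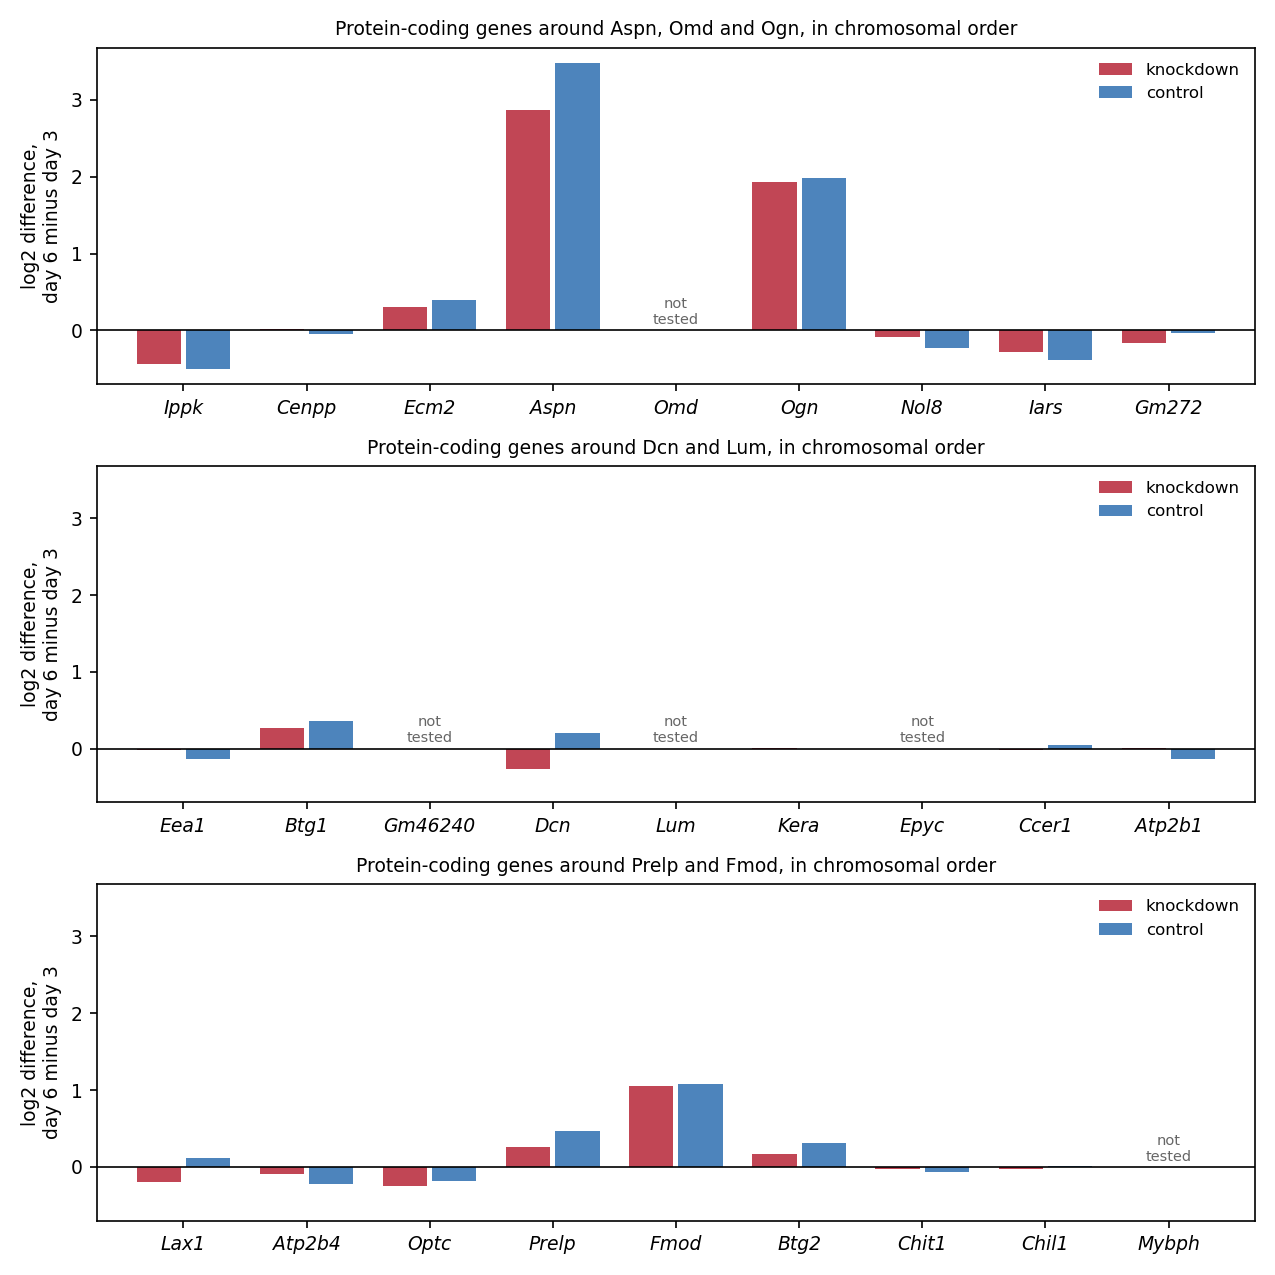
Log2 difference, day 6 minus day 3 (vertical axis), of protein-coding genes in RefSeq order (horizontal axis, not to scale) around Aspn, Omd and Ogn, around Dcn and Lum, and around Prelp and Fmod, in knockdown and control cells. Bars are differences of group means; Aspn (2.87 in knockdown, 3.48 in control) and Ogn (1.93 in knockdown, 1.98 in control) have the tallest bars of the first panel.

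Lists of genes that make, cut or bind these proteoglycans held changes in both directions. Together the 7 lists held 119 tested genes, of which 20 rose and 23 fell between day 3 and day 6 in knockdown, and 20 rose and 17 fell in control. Over all genes, 7.46% rose and 10.5% fell in knockdown, and 6.99% rose and 10.6% fell in control. The lists were chosen with earlier results of these data known, so their counts, here and below, are read no further. Of the 119, 0 passed any of the 4 hairpin comparisons. Among 7 other members of the family, 0 rose and 0 fell in knockdown, and 1 rose, Ecm2, and 0 fell in control.

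Of 16 fibrillar and fibril-associated collagens, 1 rose and 3 fell in knockdown, and 2 rose and 3 fell in control. The 1 that rose in knockdown was Col11a1 (0.55, limma adjusted p = 0.0161). Its call was lost without replicate 1 of day 3 knockdown (0.43, adjusted p = 0.0672) or of day 6 knockdown (0.42, 0.0613). Col2a1, the cartilage collagen, fell by 0.77 on the log2 scale in knockdown (adjusted p = 3.42e-05) and by 0.64 in control (adjusted p = 1.80e-04). Col5a2, a chain of the type V collagen that nucleates fibrils, fell by 0.53 in knockdown (adjusted p = 0.00661) and by 0.61 in control (adjusted p = 0.00303). That call was lost in knockdown without replicate 2 of all groups (−0.45, adjusted p = 0.0961) or replicate 3 of all groups (−0.53, 0.0542), and in control without replicate 2 of all groups (−0.50, 0.0809). The list's median was 0.02 in knockdown and −0.02 in control.

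Enzymes that build chondroitin and dermatan sulfate chains included 2 that rose and 7 that fell of 26 in knockdown, and 2 that rose and 3 that fell in control. Papss2, which makes the sulfate donor, stood at 8.59 ± 0.13 (SD, n = 3) at day 6 and 9.68 ± 0.19 at day 3 in knockdown, and so fell by 1.09 on the log2 scale (limma adjusted p = 3.19e-05). In control it was 8.79 ± 0.05 at day 6 and 9.65 ± 0.17 at day 3 (−0.86, limma adjusted p = 2.15e-04). Papss1, its paralogue, had a higher signal in control, 10.56 at day 6 and 10.25 at day 3, and rose there by 0.30 (limma adjusted p = 0.0172). That call was lost without day 3 control replicate 3 (adjusted p = 0.0520), without day 6 control replicate 2 (0.0561) or with median centring (0.0762). Slc35d1, which carries nucleotide sugars into the secretory pathway, fell by 0.41 in knockdown (adjusted p = 6.58e-04) and by 0.35 in control (adjusted p = 0.00222). Of 9 genes for keratan sulfate chains, 2 rose and 1 fell in knockdown, and 1 rose and 1 fell in control. Of these calls, only the rise of B3gnt2 in knockdown held with each single array left out. The fall of Chst2 passed in 0 of 6 such fits in knockdown and in 1 of 6 in control. The medians were −0.05 and 0.04 in knockdown and −0.08 and 0.02 in control for the 2 lists, chondroitin list first.

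Among 14 proteases and cofactors that process or cleave these proteins, 1 rose and 3 fell in knockdown, and 2 rose and 2 fell in control. Tll1, a protease of the BMP1 group that trims procollagens, stood at 6.45 ± 0.01 (SD, n = 3) at day 6 and 7.89 ± 0.14 at day 3 in knockdown, and so fell by 1.45 (limma adjusted p = 4.14e-05). In control it was 6.57 ± 0.23 at day 6 and 7.81 ± 0.32 at day 3 (−1.24, limma adjusted p = 1.67e-04). Pcolce and Pcolce2, a pair of enhancers of procollagen cleavage, moved in opposite directions. Pcolce rose by 0.50 in knockdown (adjusted p = 0.00267) and by 0.80 in control (adjusted p = 1.50e-04), and the knockdown call was lost without replicate 3 of all groups (0.53, adjusted p = 0.0581). Pcolce2 fell by 0.50 in knockdown (adjusted p = 8.87e-04) and by 0.55 in control (adjusted p = 5.29e-04).

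Of 24 binding partners and receptors, 8 rose and 5 fell in knockdown, and 7 rose and 5 fell in control. Eln, which encodes elastin, stood at 7.75 ± 0.83 (SD, n = 3) at day 6 and 5.52 ± 0.34 at day 3 in knockdown, a rise of 2.23 (limma adjusted p = 0.00112). In control it was 7.84 ± 0.56 at day 6 and 5.51 ± 0.20 at day 3, a rise of 2.33 (limma adjusted p = 9.62e-04). Bmp4, a growth factor of the TGF-beta family, rose by 0.56 in knockdown (adjusted p = 0.00411) and by 0.81 in control (adjusted p = 4.40e-04). The receptor tyrosine kinases Kdr and Met, both bound by decorin, moved apart. Kdr rose by 1.25 in knockdown (adjusted p = 3.92e-05) and by 1.00 in control (adjusted p = 2.41e-04), and Met fell by 0.82 in knockdown (adjusted p = 4.17e-05) and by 0.82 in control (adjusted p = 5.55e-05).

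Of 24 other proteoglycans, 6 rose and 4 fell in knockdown, and 6 rose and 3 fell in control. Vcan, which encodes versican, the large chondroitin sulfate proteoglycan of loose matrix, stood at 7.51 ± 0.18 (SD, n = 3) at day 6 and 8.82 ± 0.13 at day 3 in knockdown, and so fell by 1.31 (limma adjusted p = 2.51e-05). In control it fell by 1.39 (limma adjusted p = 2.02e-05). Spock2, a secreted testican, rose by 1.25 in knockdown (adjusted p = 3.27e-05) and by 1.11 in control (adjusted p = 9.16e-05). Gpc3, a membrane-anchored heparan sulfate proteoglycan, fell by 0.90 in knockdown (adjusted p = 0.00388) and by 0.82 in control (adjusted p = 0.00701). Its call was lost in knockdown without replicate 3 of all groups (−0.75, adjusted p = 0.110) and in control without replicate 2 (−0.71, 0.0614) or 3 (−0.75, 0.107) of all groups.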

How the data were processed

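Gene expression was measured on 12 Affymetrix arrays from biotin-labelled cDNA made from 100 ng of RNA, per the labels' protocols. Per the submitters' processing notes, the authors used RMA, run from Affymetrix Expression Console (version 1.3.0.187), to make the deposited intensity values. These spanned 4.71 to 13421, a linear scale, and their log2 was taken. No scan date, slide or other batch is given, nor is a genome build, in the sources used here. Array medians lay between intensities of 39.5 and 43.3, and Pearson's r within a group between 0.991 and 0.995. The small number of arrays limits the precision.

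Of 41345 probe sets, 23521 named 1 gene, 1814 several and 16010 none. Differences were fitted with limma 3.58.1 in R 4.3.3 (4 group means fitted to the 12 arrays together, with 8 residual degrees of freedom, two-sided, Benjamini-Hochberg over 17860 genes, threshold 0.05). Time comparisons of the 9 proteoglycans were not tested, because they chose the genes. The genes and lists were chosen with earlier results of these data known. Named genes were, per list and comparison, up to 4 past the threshold with the largest difference. Of these the text gives those that kept their call in both hairpins with each single array left out. Ecm2, Col11a1, Papss1, Chst2 and B3gnt2 are given outside that rule. Genes next to a proteoglycan were named by position, outside that rule, with their order taken from RefSeq GRCm38.p6, and promoter windows from RefSeq of that build.

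Groups share replicate numbers. With each group's mean taken away, deviations of same-numbered arrays correlated at 0.14 to 0.37, over 0.1 in 12 of 12 pairs. Same-number arrays were therefore described as pairs. The main fit left the number out, and a fit with the number as a block was an alternative. Other alternatives were the filter, the mean of probe sets, quantile or median scaling again, only the 2 groups compared, a variance trend with robust estimation, array weights and leaving out arrays. The code of the main fit was checked on simulated data with independent noise in each array. That check does not cover the spread that same-number arrays share. Plots were made with Python 3.11.15, pandas 2.3.3 and matplotlib 3.10.9.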

Additional observations from a re-analysis of the deposited data

How the results depend on the processing

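The count of proteoglycans past the threshold in the 4 hairpin comparisons was 0 under every alternative run, and the replicate block changed no call of a proteoglycan. Among the comparisons given for named genes, the block added Ecm2 in knockdown. Values near 0 changed sign. The day 3 effect was 0.0081 for Bgn with quantile normalisation again, −0.022 for Prelp with the mean of probe sets, and for Podn −0.024 with array weights and −0.013 with median centring. The day 6 knockdown effect minus the day 3 one was 0.063 for Fmod with array weights and 0.014 with the mean of probe sets, and 0.037 for Ogn with array weights. With arrays left out, the day 6 effect ran from −1.04 to 0.032 for Aspn, −0.62 to 0.091 for Ogn, −0.36 to 0.032 for Podn, −0.14 to 0.033 for Bgn, −0.20 to 0.079 for Dcn, −0.18 to 0.013 for Ecm2, −0.24 to 0.0057 for Optc and −0.0055 to 0.26 for Chst4, a keratan sulfate enzyme. The day 3 effect ran from −0.15 to 0.019 for Fmod, −0.12 to 0.086 for Podn, −0.036 to 0.20 for Prelp and −0.045 to 0.023 for Bgn. The day 6 effect minus the day 3 effect ran from −0.39 to 0.32 for Ogn, −0.14 to 0.066 for Fmod, −0.36 to 0.029 for Podn and −0.14 to 0.038 for Bgn. The averaged effect ran from −0.42 to 0.12 for Aspn, −0.18 to 0.017 for Podn, −0.093 to 0.035 for Prelp and −0.073 to 0.014 for Bgn. The time difference ran from −0.11 to 0.15 for Cenpp in knockdown, −0.16 to 0.031 for Cenpp in control, −0.051 to 0.088 for Kera in knockdown and −0.044 to 0.024 for Kera in control. It was −0.0026 for Cenpp and −0.0089 for Kera in knockdown with median centring, −0.0044 and −0.000786 with quantile normalisation again, and 0.073 for Cenpp in control with array weights. The cause was not tested.

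Over all genes, calls higher at day 6 with arrays left out numbered 506 to 1189 in knockdown and 455 to 1083 in control, and calls lower 562 to 1552 in knockdown and 575 to 1725 in control. The share of calls that were higher, 41.6% in knockdown and 39.7% in control, was 37.3% and 29.8% (825 calls) with median centring, and 48.5% and 46.2% with quantile normalisation again, knockdown first. Knockdown calls at day 6 numbered 0 to 8 with arrays left out and 2 with only the 2 groups compared, and those of the day 6 effect minus the day 3 effect 0 to 2. Averaged over both days there were 0 to 2 with arrays left out, 3 with array weights, 2 with the replicate block and 2 with the variance trend. The median time difference of the 7 proteoglycans lay between 0.35 and 0.78 in knockdown, and 0.47 and 0.89 in control, with arrays left out, and scaling again moved the median of all genes by under 0.1. Likeness cannot change with median centring, by construction. Levels of Aspn at day 3, Omd and Lum are limited by signal near the low-value mark.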
